A study of Mus musculus with 6 samples.

Results

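The respiratory chain and the ATP synthase of mitochondria are built from subunits that are encoded mainly in the nucleus. The nuclear genes were examined in MIN6 mouse β cell clones with Cas9 directed to an exon or, as control, an intron of *Snd1*. They were chosen by symbol as the protein-coding genes of complex I (*Ndufa*, *Ndufb*, *Ndufc*, *Ndufs* and *Ndufv* genes), complex II (*Sdha* to *Sdhd*), complex III (*Uqcr* genes), complex IV (*Cox4* to *Cox8* genes) and complex V (*Atp5* genes). By this rule 84 of the 53801 mouse genes listed were included, namely 37 of complex I, 4 of complex II, 8 of complex III, 18 of complex IV and 17 of complex V, on 19 chromosomes. A second identifier of *Atp5o* in the annotation had no value and was not analysed here. *Ndufa4* was counted with complex I by its symbol, although its protein is known as a subunit of complex IV. *Cyc1* of complex III and *Ndufab1* of complex I are nuclear subunit genes that the rule leaves out.

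MIN6 is a β cell line from a mouse insulinoma. All 6 clones descend from MIN6 cells that express Cas9 and received a lentivirus encoding a gRNA, followed by puromycin selection and expansion from single cells. In the 3 control clones (genotype control) the gRNA directed Cas9 to an intron of *Snd1*, which the labels give as Intron 2, and in the 3 *Snd1* KO clones to exon 2. For exon 2 the paper lists 2 gRNAs. Each clone is 1 sample with 1 library, hereafter Control 1 to 3 and *Snd1* KO 1 to 3, so that the spread between clones of a group contains both the effect of cloning and technical error. The labels do not say that the clone numbers pair the clones, and the clones were compared unpaired.

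Complex I oxidizes NADH and complex II oxidizes succinate, and both pass the electrons through ubiquinone to complex III, cytochrome c and complex IV, which reduces oxygen. Complexes I, III and IV pump protons, and complex V uses the proton gradient to make ATP. In β cells the rise of ATP that follows glucose oxidation closes ATP-sensitive potassium channels, which is the step that couples glucose to calcium entry and insulin secretion.

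*Snd1* itself was at 113, 119 and 112 TPM in Controls 1, 2 and 3 and at 14.7, 57.1 and 19.9 TPM in *Snd1* KO 1, 2 and 3. TPM is the number of reads per gene length, scaled to a sum of 1000000 per library. *Snd1* KO 2 thus retained 49.8% of the control mean, compared with 12.9% and 17.3% in the other *Snd1* KO clones. The log2 fold change of *Snd1* was -2.11 ± 0.45 (SE) with an adjusted p-value of 0.511 (limma). A disrupted exon 2 need not lower the RNA, so that this level does not measure the loss of the protein. In the paper the *Snd1* KO clones were deficient in SND1 protein by immunoblot. Its sequencing of exon 2 found insertions or deletions, with a major deletion in its clone KO2. The libraries held between 25799159 and 32984272 reads on genes, fewest in Control 3. The summed level of 10 β cell markers such as *Ins2* and *Pdx1* ranged from 44214 to 82193 TPM. The sum of 4 markers of other islet cells was 174 to 314 TPM in the control clones and 55.9 to 1102 TPM in the *Snd1* KO clones. Nearly all of it was *Gcg*, whereas *Sst*, *Ppy* and *Ghrl* did not exceed 2.42, 0.196 and 0.648 TPM in a clone. Markers of striated muscle (5 genes) and of stromal and blood cells (5 genes) did not exceed 4.40 TPM in sum, and those of acinar and duct cells and of testis germ cells did not exceed 0.155 TPM.

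The stretches of DNA before the start sites of the genes were searched for motifs of factors known for their part in the control of respiratory chain genes. RefSeq (GRCm38.p6) gave 73 promoters for 68 of the 84 genes. Within the 250 bases before the start, the NRF1 motif GCGCATGCG was found on either strand in 8.22% of these promoters compared with 1.45% of all 32851 promoters, and the ETS motif CCGGAAG, bound by GABPA, in 16.4% compared with 6.91%. The 6 genes with the NRF1 motif were *Atp5g2*, *Atp5k*, *Atp5l*, *Cox6a1*, *Ndufa11* and *Ndufa8*. The cAMP response element TGACGTCA was found in 5.48% compared with 1.55%, the motif CAAGGTCA of estrogen-related receptors in 4.11% compared with 1.33%, the YY1 motif AAGATGGC in 1.37% compared with 1.56%, and the GC box GGGCGG in 34.2% compared with 32.7%. No motif is contained in another, the shares carry no test, and a match describes letters only. The 250 bases before the start are given here for 4 genes, 5′ to 3′ on the minus strand of GRCm38.p6, on which all 4 lie. *Cox6a1* (chr5:115348959-115349208) and *Atp5l* (chr9:44920743-44920992) hold both the NRF1 and the ETS motif, marked in capitals. *Cox6a1* also holds the GC box and *Atp5l* the motif of estrogen-related receptors, both unmarked. *Cox8a* (chr19:7217617-7217866) and *Cox8b* (chr7:140900447-140900696) hold none of the 6 motifs. They are the widely expressed and the muscle form of 1 subunit. The former was the most abundant of all the genes examined and the latter nearly absent from these clones.
Cox6a1: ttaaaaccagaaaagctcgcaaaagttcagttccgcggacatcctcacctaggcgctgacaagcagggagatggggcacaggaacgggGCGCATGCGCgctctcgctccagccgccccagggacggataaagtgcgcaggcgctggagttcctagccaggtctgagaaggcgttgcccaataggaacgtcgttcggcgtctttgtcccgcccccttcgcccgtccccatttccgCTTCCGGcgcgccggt
Atp5l: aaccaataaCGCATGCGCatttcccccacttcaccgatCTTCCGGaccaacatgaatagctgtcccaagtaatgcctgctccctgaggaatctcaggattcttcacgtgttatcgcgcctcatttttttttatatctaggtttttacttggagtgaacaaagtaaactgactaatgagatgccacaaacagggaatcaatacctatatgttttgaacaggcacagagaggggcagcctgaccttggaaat
Cox8a: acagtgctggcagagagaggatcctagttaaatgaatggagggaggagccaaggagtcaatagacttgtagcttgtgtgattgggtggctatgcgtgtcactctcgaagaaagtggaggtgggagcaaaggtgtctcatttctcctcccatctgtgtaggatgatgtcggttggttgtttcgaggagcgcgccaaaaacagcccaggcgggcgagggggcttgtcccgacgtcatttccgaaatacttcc
Cox8b: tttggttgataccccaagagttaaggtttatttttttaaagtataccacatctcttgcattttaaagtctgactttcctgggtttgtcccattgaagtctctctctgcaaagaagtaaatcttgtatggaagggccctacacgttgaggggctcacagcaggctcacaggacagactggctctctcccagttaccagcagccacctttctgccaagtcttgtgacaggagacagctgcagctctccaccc

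TPM elsewhere, the sums over genes included, are deposited values unless stated. These divide by a length in which exons shared by transcripts are counted repeatedly. Levels between genes were therefore compared here as TPM with each exonic base counted once. On this scale the median gene averaging 0.5 deposited TPM or more was at 193 TPM, and 62 of the 84 genes reached 100 TPM. *Cox8a* led with 1829.9 ± 193 in control and 1886 ± 172 in *Snd1* KO clones (SD, n = 3), followed by *Atp5a1* at 760.2 ± 33.7 in control and 768 ± 35.9 in *Snd1* KO clones (SD, n = 3), *Cox6b1* at 688, *Atp5b* at 659.6 and *Cox6a1* at 632 TPM over all clones. The groups of clones differed within each of these genes by less than their SDs. The lowest were *Cox8c*, *Cox4i2*, *Cox7b2*, *Cox6b2* and *Cox8b*, each at or below 0.929 TPM.

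To examine whether the subunit genes differed between *Snd1* KO and control clones, log2(TPM + 1) was compared by limma across all 17823 genes averaging 0.5 TPM or more, of which 80 are respiratory chain genes. At an adjusted p-value under 0.05 and at least a 2-fold difference, 0 of the 80 genes were called, compared with 0.00561% of all genes tested, and the lowest adjusted p-value among the 80 was 0.607 (limma, Benjamini-Hochberg). At an unadjusted p-value under 0.05, 1 gene was higher in *Snd1* KO (*Sdhd*), compared with 5.63% of all genes tested, and 2 were lower (*Cox8b* and *Ndufc2*), compared with 2.33%. By voom on the recovered reads, 0 of the 80 genes were called and 0 passed an unadjusted p-value of 0.05, compared with 5.48% of all genes tested that passed it and were higher and 3.24% that passed it and were lower. All 3 *Snd1* KO clones lay above all 3 control clones for 5 genes, compared with 9.69% of all genes tested, and below them for 7 genes, compared with 4.03%. An exact permutation test of 3 against 3 clones cannot go below 0.1. Neither share was tested, and both changed sides of the background without Control 3, where 26 of the 80 genes lay above, compared with 17.2% of all genes tested, and 10 lay below, compared with 17.8%. With quantile normalization 5 lay below, compared with 7.49%. With clones weighted by estimated quality, which gave Control 3 and *Snd1* KO 1 the lowest weights, 6 of the 80 genes (7.50%) passed an adjusted p-value of 0.05 (limma), compared with 12.1% of all genes tested. These were *Sdhd*, *Uqcrc1* and *Cox6c*, which were higher, and *Cox5a*, *Cox8b* and *Atp5g1*, which were lower.

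The size of the differences was small for most genes. The median log2 fold change (*Snd1* KO minus control) was 0.01 over the 80 genes and 0.04 over all genes tested, with 42 of the 80 higher and 38 lower, compared with 57.3% of all genes tested that were higher. By complex the median was -0.02 in complex I, 0.01 in complex II, 0.05 in complex III, -0.03 in complex IV and 0.05 in complex V. The medians depended on single clones, in sign too except in complex III. Without *Snd1* KO 2 the median was -0.06 over the 80 genes, -0.08 in complex I and -0.09 in complex IV, and without Control 3 it was 0.06, 0.05 and 0.07. In complex II it was -0.06 without Control 3, and in complex V -0.0054 without Control 2 and 0.14 without Control 3. In complex III it ran from 0.01 without Control 2 to 0.17 without Control 3. The mean of *Snd1* KO clones lay within 10% of the control mean for 57 genes and within 20% for 73 genes. Among 20 core subunits, 15 lay within 10%, and their log2 fold changes ran from -0.34 (*Cox5a*) to 0.54 (*Uqcrc1*). The median SE of a log2 fold change was 0.13. With 3 clones per group, differences several times this size did not pass the adjusted threshold, that of *Snd1* included.

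**Figure D1:**
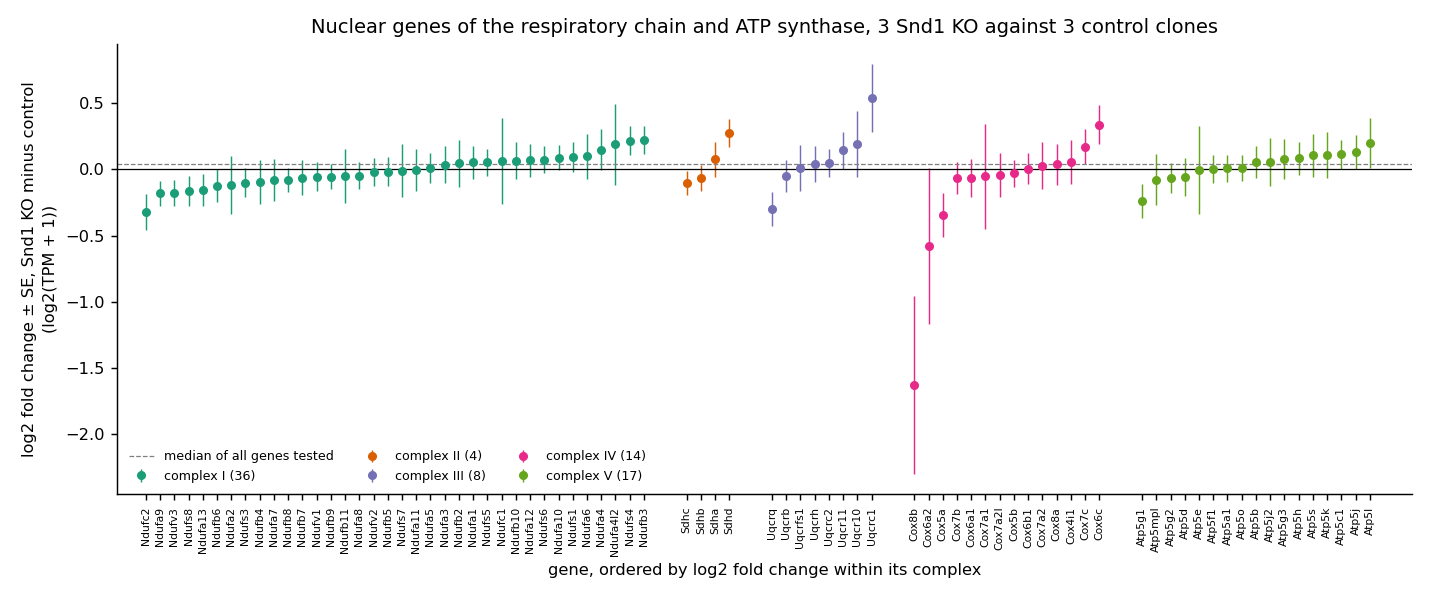
Log2 fold change (*Snd1* KO minus control, log2(TPM + 1) scale) of 79 of the 80 genes tested, with the SE of the limma fit, ordered within each complex. The dashed line is the median of all genes tested, and the values run from -1.63 for *Cox8b* to 0.54 for *Uqcrc1*, with 57 of the 80 genes within 10% of the control mean.

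Complex I takes up electrons from NADH through a flavin and a chain of iron-sulfur clusters in its peripheral arm, which is formed by nuclear-encoded core subunits. *Ndufv1*, which holds the flavin, was at 52.6, 46.3 and 54.9 TPM in the control clones and 47.7, 52.3 and 47.9 TPM in the *Snd1* KO clones. *Ndufv2*, an iron-sulfur subunit beside it, was at 169, 173 and 192 TPM in the control clones and 176, 188 and 164 TPM in the *Snd1* KO clones. *Ndufs1*, the largest iron-sulfur subunit, was at 43.4, 45.7 and 38.2 TPM in the control clones and 49.0, 42.7 and 44.1 TPM in the *Snd1* KO clones. For these 3 genes of the NADH-oxidizing module the ranges of the groups overlapped. *Ndufs7*, an iron-sulfur subunit at the ubiquinone site, was at 39.8, 34.9 and 47.4 TPM in the control clones and 32.2, 51.5 and 39.0 TPM in the *Snd1* KO clones, and it varied between the clones of both groups. *Ndufs3*, a core subunit without a cofactor, was at 72.2, 67.9 and 69.6 TPM in the control clones and 64.8, 72.1 and 59.0 TPM in the *Snd1* KO clones. *Ndufs8*, an iron-sulfur subunit, was at 285, 253 and 279 TPM in the control clones and 241, 264 and 224 TPM in the *Snd1* KO clones. Both had a lower mean in *Snd1* KO, and both had groups that overlapped.

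Among the accessory subunits of complex I, *Ndufc2*, a subunit of the membrane arm, showed the largest difference. It was at 509, 475 and 588 TPM in the control clones and 375, 446 and 436 TPM in the *Snd1* KO clones, with every *Snd1* KO clone below every control clone. The means were 524 ± 58.1 TPM for the control clones and 419 ± 38.1 TPM for the *Snd1* KO clones (mean ± SD, n = 3), the log2 fold change was -0.32 ± 0.13 (SE), and the p-value of 0.0487 became 0.607 after adjustment (limma). *Ndufb3*, another subunit of the membrane arm, was at 366, 340.2 and 384 TPM in the control clones and 454, 419 and 401 TPM in the *Snd1* KO clones, and each *Snd1* KO clone was higher than each control clone, with a log2 fold change of 0.22 ± 0.11 (SE). *Ndufa4* was at 225, 232 and 305 TPM in the control clones and 286, 304 and 249 TPM in the *Snd1* KO clones. Its paralog *Ndufa4l2*, known for its induction by hypoxia, was at 0.833, 0.638 and 0.877 TPM in the control clones and 0.757, 0.611 and 1.95 TPM in the *Snd1* KO clones. With each exonic base counted once, *Ndufa4* averaged 384 and *Ndufa4l2* 1.25 TPM, and the 7 to 24 reads per clone of *Ndufa4l2* carry a large counting error. The other 26 accessory genes of complex I averaged between 22.4 (*Ndufb2*) and 932 (*Ndufa1*) deposited TPM. Of these, 12 were higher and 14 lower in *Snd1* KO, with log2 fold changes from -0.18 (*Ndufa9*) to 0.22 (*Ndufs4*) and adjusted p-values of at least 0.618 (limma). *Ndufa10* and *Ndufs4* were higher in each *Snd1* KO clone and *Ndufa9*, *Ndufb8* and *Ndufv3* lower in each, chosen for naming after their values were seen.

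Complex II, which is also the succinate dehydrogenase of the citric acid cycle, is the complex encoded entirely in the nucleus. *Sdha*, which holds the flavin, was at 192, 195 and 149.9 TPM in the control clones and 195, 177 and 192 TPM in the *Snd1* KO clones, lowest in Control 3. *Sdhb*, the iron-sulfur subunit, was at 133, 132 and 131 TPM in the control clones and 116, 137 and 126 TPM in the *Snd1* KO clones, with overlapping groups. The membrane anchors *Sdhc* and *Sdhd* differed in opposite directions. *Sdhc* was at 145, 136 and 135 TPM in the control clones and 125, 129 and 132 TPM in the *Snd1* KO clones, with the *Snd1* KO clones below the control clones by a narrow margin and a log2 fold change of -0.11 ± 0.09 (SE). *Sdhd* was at 460.0, 443 and 490.4 TPM in the control clones and 541, 590.0 and 556 TPM in the *Snd1* KO clones, with each *Snd1* KO clone above each control clone. The group means were 464 ± 24.2 TPM for the control clones and 562 ± 25.1 TPM for the *Snd1* KO clones (mean ± SD, n = 3), and its log2 fold change was 0.28 ± 0.11 (SE) with a p-value of 0.0382 and an adjusted p-value of 0.607 (limma). Over the alternatives of the fit the adjusted p-value of *Sdhd* ranged from 0.0344 to 0.983. The 4 genes of complex II summed to 929.9, 906 and 906 TPM in the control clones and 977, 1033 and 1005 TPM in the *Snd1* KO clones, with each *Snd1* KO clone above each control clone. Of these genes 2 were higher and 2 lower, and the difference between the group means of *Sdhd* alone was no smaller than that of the sum.

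Complex III passes electrons from ubiquinol to cytochrome c. *Uqcrfs1*, the Rieske iron-sulfur protein of its catalytic core, was at 446, 442 and 639.8 TPM in the control clones and 542, 515 and 465 TPM in the *Snd1* KO clones, highest in Control 3. *Uqcrc2*, 1 of the pair of large core proteins on the matrix side, was at 164, 156 and 139 TPM in the control clones and 164, 157 and 152 TPM in the *Snd1* KO clones, with overlapping groups. *Uqcrc1*, the other core protein, was at 43.3, 42.7 and 83.0 TPM in the control clones and 78.5, 80.4 and 75.9 TPM in the *Snd1* KO clones. Controls 1 and 2 thus lay far below the other 4 clones, whereas Control 3 was as high as the *Snd1* KO clones. The log2 fold change of *Uqcrc1* was 0.54 ± 0.26 (SE), the largest in the higher direction among the 80 genes, with an adjusted p-value of 0.607 (0.0238 to 0.983 over the alternatives, limma), and the groups overlapped. Without Control 3 it was 0.85. Among the small subunits, *Uqcrq* was at 174, 183 and 218 TPM in the control clones and 141, 168 and 157 TPM in the *Snd1* KO clones, lower in each *Snd1* KO clone with a log2 fold change of -0.30 ± 0.13 (SE). *Uqcr10* was at 193, 191 and 329 TPM in the control clones and 223, 317 and 256 TPM in the *Snd1* KO clones, highest in Control 3 and *Snd1* KO 2. The other 3 genes, *Uqcr11*, *Uqcrb* and *Uqcrh*, had log2 fold changes between -0.05 and 0.14.

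Because *Uqcrc1* differed between the control clones, the genes near it were examined. *Uqcrc1* lies at chr9:108936633-108949623 on the plus strand (GRCm38). Of 106 genes within 3 Mb of its start and averaging 2 TPM or more, 56 had their lowest values in Controls 1 and 2, compared with 10.6% of 13730 such genes in the genome. The median deviation of these neighbours from their mean over the clones was -0.39, -0.43 and 0.17 in Controls 1, 2 and 3 and 0.09, 0.20 and 0.17 in *Snd1* KO 1, 2 and 3 on the log2(TPM + 1) scale. *Tma7*, 138 kb away, was at 152, 148 and 334 TPM in the control clones and 339, 348 and 303 TPM in the *Snd1* KO clones. *Prkar2a*, which encodes a regulatory subunit of protein kinase A and starts 247 kb before *Uqcrc1*, was at 58.9, 62.2 and 89.6 TPM in the control clones and 113, 87.0 and 101 TPM in the *Snd1* KO clones. The pattern was seen in 3 neighbouring intervals of 1 Mb, in 15 of 16 genes between 2 and 1 Mb before *Uqcrc1*, in 31 of 39 within 1 Mb before it and in 6 of 12 within 1 Mb after it. In the next intervals outside, it was seen in 3 of 23 and 1 of 13 genes. Within 15 Mb on either side it was also seen farther out, in 6 of 16 genes between 14 and 15 Mb after *Uqcrc1*, in 2 of 6 between 11 and 10 Mb before it and in the single gene between 7 and 8 Mb after it. It was seen as well in 5 of 9 genes between 12 and 13 Mb after *Uqcrc1* and in 2 of 4 between 7 and 6 Mb before it, where the medians of Controls 1 and 2 were -0.10 and -0.15 and -0.29 and -0.24. The value of *Uqcrc1* thus moved with those of many genes near it in these clones, and their part in the comparison of the groups was not tested. These neighbours and the window were chosen after the values of *Uqcrc1* were seen.

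**Figure D2:**
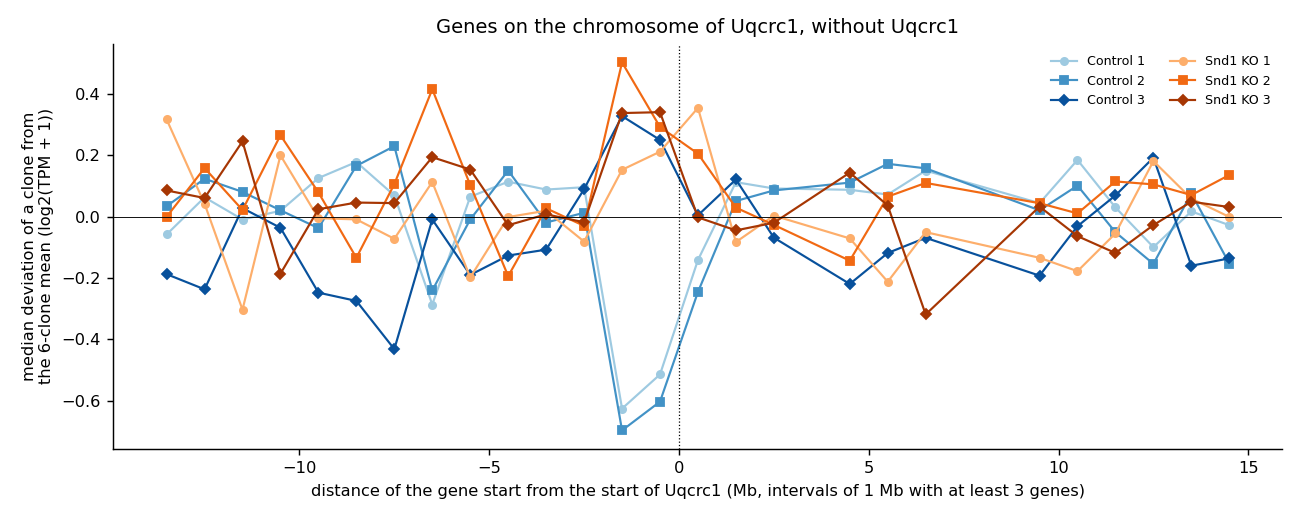
Median deviation of each clone from the mean of the 6 clones (log2(TPM + 1)) for genes in intervals of 1 Mb by distance from the start of *Uqcrc1*, which is itself left out. Controls 1 and 2 lie at -0.63 and -0.70 between 2 and 1 Mb before *Uqcrc1* and return to 0.10 and 0.01 1 Mb further out.

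The same was computed for the 76 genes with at least 10 such neighbours. The median of the neighbours deviated by more than 0.25 in any clone for 4 of them, namely *Uqcrc1*, *Cox7b*, *Cox6c* and *Atp5g3*. The neighbours of *Cox7b*, *Cox6c* and *Atp5g3* lay at -0.33, -0.27 and -0.26 in Control 3, where these genes themselves lay at 0.20, -0.03 and 0.25. Low values in Control 3 were not particular to these regions. The neighbours of *Ndufb3* and *Ndufa1* lay at -0.23 in Control 3, whereas those of *Ndufa11* lay at 0.02.

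Complex IV has its catalytic core encoded in mitochondria and a shell of nuclear subunits. *Cox4i1*, the subunit through which ATP inhibits the enzyme, was at 250.3, 244 and 307 TPM in the control clones and 229, 323 and 283 TPM in the *Snd1* KO clones. *Cox5b*, a zinc-binding subunit, was at 158, 162 and 159 TPM in the control clones and 145, 171 and 153 TPM in the *Snd1* KO clones. Both had overlapping groups. *Cox5a* was at 178, 176 and 179 TPM in the control clones and 181, 123 and 123 TPM in the *Snd1* KO clones. The 3 control clones and *Snd1* KO 1 lay together, and *Snd1* KO 2 and 3 lay together at a lower level, which gave a log2 fold change of -0.34 ± 0.17 (SE) with an adjusted p-value of 0.609 (0.0251 to 0.983 over the alternatives, limma). Without *Snd1* KO 1 the log2 fold change of *Cox5a* was -0.53. *Cox6c*, a small membrane subunit, was at 159.8, 158 and 184 TPM in the control clones and 186, 253 and 199.97 TPM in the *Snd1* KO clones, higher in each *Snd1* KO clone with a log2 fold change of 0.34 ± 0.15 (SE), or 0.21 without *Snd1* KO 2, and an adjusted p-value of 0.607 (0.0466 to 0.983 over the alternatives, limma).

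Several subunits of complex IV have a form expressed widely and a form known from heart and skeletal muscle, lung or testis. The widely expressed forms were all present. *Cox6a1* was at 557, 574 and 693 TPM in the control clones and 535, 651 and 557 TPM in the *Snd1* KO clones. *Cox6b1* was at 447, 450.3 and 529 TPM in the control clones and 473, 500.2 and 455 TPM in the *Snd1* KO clones. *Cox7a2* was at 553, 533 and 757 TPM in the control clones and 575, 708 and 583 TPM in the *Snd1* KO clones. *Cox7a2l*, which encodes a factor that joins complexes III and IV, was at 263, 263 and 317 TPM in the control clones and 224, 323 and 279 TPM in the *Snd1* KO clones. In these genes the groups overlapped and log2 fold changes lay between -0.07 and 0.04, which holds for *Cox7b* and *Cox8a* too. *Cox7b* was at 346, 367 and 423 TPM in the control clones and 371, 374 and 337 TPM in the *Snd1* KO clones. *Cox8a* was at 1553, 1574 and 1857 TPM in the control clones and 1571, 1889 and 1657 TPM in the *Snd1* KO clones.

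Of the muscle forms, *Cox6a2* was the exception in being abundant. It was at 346, 253 and 565 TPM in the control clones and 623, 155 and 153 TPM in the *Snd1* KO clones, a range of 4.07-fold, with *Snd1* KO 1 and Control 3 highest and *Snd1* KO 2 and 3 lowest. With each exonic base counted once it averaged 219 TPM, compared with 632 TPM for *Cox6a1*. Its log2 fold change was -0.58 ± 0.59 (SE), no larger than its SE, and ran from -1.25 without *Snd1* KO 1 to -0.24 without *Snd1* KO 3. The 5 striated muscle markers summed to 2.68 to 4.40 TPM in the control clones and 1.45 to 3.05 TPM in the *Snd1* KO clones. *Cox6a2* lies at chr7:128205435-128206387 on the minus strand (GRCm38), within *Itgad* on the opposite strand, and *Itgad* did not exceed 0.198 TPM. The noncoding genes on either side of it on the same strand varied with it. *4931431B13Rik* was at 33.4, 19.1 and 50.8 TPM in the control clones and 62.8, 14.5 and 11.8 TPM in the *Snd1* KO clones. *Gm44850* was at 189.7, 142 and 274 TPM in the control clones and 410.0, 93.4 and 86.7 TPM in the *Snd1* KO clones. The order of the 6 clones was the same in all 3 genes, from *Snd1* KO 1 as the highest to *Snd1* KO 3 as the lowest.

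The other tissue-specific forms were at low levels. *Cox7a1*, the muscle form of the subunit encoded by *Cox7a2*, was at 5.37, 7.96 and 16.3 TPM in the control clones and 11.3, 9.39 and 5.98 TPM in the *Snd1* KO clones, from 27 to 71 reads per clone. *Cox8b*, the muscle form of *Cox8a*, had 10, 8 and 0 reads in the control clones and 0, 0 and 0 reads in the *Snd1* KO clones, or 4.85 and 4.08 TPM in Controls 1 and 2. Its log2 fold change of -1.63 ± 0.67 (SE) with a p-value of 0.0470 and an adjusted p-value of 0.607 (limma) therefore rests on these reads in Controls 1 and 2. Its size depends on what is added to the counts of 0, with -3.67 at a pseudocount of 0.1 and -2.86 by voom, and it was -2.45 without Control 3. Over the alternatives its adjusted p-value ranged from 0.0225 to 0.983 (limma), lowest with clone quality weights. Of the 5 striated muscle markers, *Ckm*, the muscle creatine kinase, was likewise highest in Controls 1 and 2, with 58, 57 and 0 reads in the control clones and 4, 5 and 3 reads in the *Snd1* KO clones. *Acta1*, the skeletal muscle actin, had 10, 22 and 27 reads in the control clones and 20, 27 and 14 reads in the *Snd1* KO clones, and *Myh7*, a myosin heavy chain, had 43, 18 and 3 reads in the control clones and 9, 5 and 5 reads in the *Snd1* KO clones. *Myl1* and *Tnnt3* did not exceed 4 and 1 reads in a clone. Among the stromal and blood cell markers, *Col1a1*, *Col1a2*, *Pecam1* and *Ptprc* also had their highest reads in Controls 1 and 2, and *Cd68* did not. *Col1a1* had 34, 38 and 2 reads in the control clones and 9, 8 and 15 reads in the *Snd1* KO clones. The part of muscle, stromal or blood cell transcripts in the value of *Cox8b* was not tested. A count of 0 allows up to 3 reads per library, and Control 3 was at 0 like the *Snd1* KO clones. The testis forms *Cox6b2* and *Cox7b2* had 3 to 22 and 0 to 2 reads per clone, with the highest count of *Cox6b2* in *Snd1* KO 1. The lung form *Cox4i2* had 1 read in *Snd1* KO 1 and 0 in the others, and the testis form *Cox8c* had 0 in all clones. These 4 genes were under the minimum of 0.5 TPM and were not tested.

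**Figure D3:**
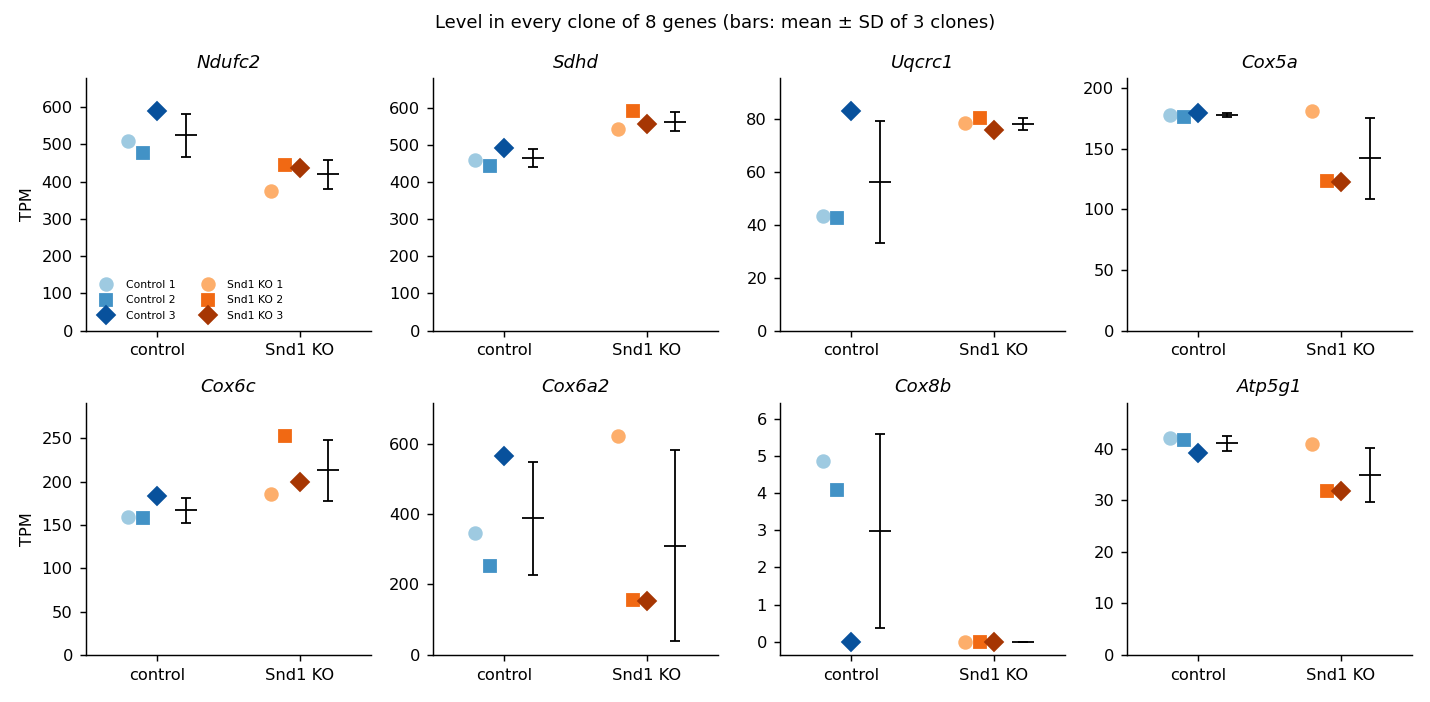
TPM of 8 genes in every clone, with the mean and SD of each group beside the points. *Uqcrc1* differs between control clones, *Cox5a* and *Atp5g1* between *Snd1* KO 1 and the other *Snd1* KO clones, and 3 of these 8 genes, *Ndufc2*, *Sdhd* and *Cox6c*, have groups that do not overlap.

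Complex V makes ATP in a catalytic head that is turned by a membrane rotor. The catalytic subunit *Atp5b* was at 526, 529 and 614 TPM in the control clones and 612, 548 and 570.0 TPM in the *Snd1* KO clones. *Atp5a1*, the other large subunit of the head, was at 495, 498 and 532 TPM in the control clones and 536, 501 and 496 TPM in the *Snd1* KO clones. *Atp5c1*, the shaft that turns within the head, was at 160.2, 156 and 170.0 TPM in the control clones and 162, 194 and 172 TPM in the *Snd1* KO clones. In all 3 genes the groups overlapped, and the highest level of *Atp5a1* over its lowest was 1.08-fold. Subunit c of the rotor ring is encoded by 3 genes whose mature proteins are identical. *Atp5g1* was at 42.0, 41.8 and 39.3 TPM in the control clones and 40.9, 31.8 and 31.9 TPM in the *Snd1* KO clones, with *Snd1* KO 2 and 3 below all the others and *Snd1* KO 1 within the range of the control clones. *Atp5g2* was at 64.8, 68.7 and 71.8 TPM in the control clones and 59.3, 72.7 and 64.4 TPM in the *Snd1* KO clones, with overlapping groups. *Atp5g3* was at 216, 208 and 285 TPM in the control clones and 234, 268 and 241 TPM in the *Snd1* KO clones. With each exonic base counted once, *Atp5g3* had the highest level of the 3 with 262 ± 48.0 in control and 275 ± 18.8 in *Snd1* KO clones (SD, n = 3), compared with 65.4 ± 3.63 in control and 62.8 ± 6.16 in *Snd1* KO clones (SD, n = 3) for *Atp5g2* and 55.7 ± 1.87 in control and 47.5 ± 7.31 in *Snd1* KO clones (SD, n = 3) for *Atp5g1*. The log2 fold change of *Atp5g1*, the lowest of the 3 on this scale, was -0.24 ± 0.13 (SE) with an adjusted p-value of 0.649 (0.0316 to 0.983 over the alternatives, limma).

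Of the stalk and membrane subunits, *Atp5j*, which encodes coupling factor 6, was at 104, 108 and 129 TPM in the control clones and 118, 137 and 117 TPM in the *Snd1* KO clones. *Atp5l*, which encodes subunit g, was at 31.6, 28.5 and 34.8 TPM in the control clones and 29.6, 47.3 and 34.2 TPM in the *Snd1* KO clones, highest in *Snd1* KO 2. Their log2 fold changes were 0.13 ± 0.13 (SE) and 0.20 ± 0.19 (SE), and 0.06 and 0.01 without *Snd1* KO 2. That of *Atp5j* was 0.23 without Control 3 and that of *Atp5l* 0.34 without *Snd1* KO 1. The other 9 genes of complex V had log2 fold changes from -0.08 (*Atp5mpl*) to 0.11 (*Atp5k*) with adjusted p-values of at least 0.875 (limma). *Atp5e*, the small subunit of the rotor, varied most among them between clones, from 145 TPM in Control 2 to 320.1 TPM in Control 3.

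In deposited TPM, the sums of complexes I, III, IV and V differed between the group means by less than the SDs of the clones. The sum of complex II, with its difference in *Sdhd*, differed by more and was not recomputed under other scalings. The 84 genes summed to 17769, 17370.5 and 20991 TPM in the control clones and 18482, 19884 and 17730.4 TPM in the *Snd1* KO clones, highest in Control 3 and *Snd1* KO 2. Complex I summed to 6799.6, 6539 and 7719 TPM in the control clones and 6678, 7370.2 and 6511 TPM in the *Snd1* KO clones. Complex IV summed to 5039, 4976 and 6183 TPM in the control clones and 5340.2, 5759 and 5004 TPM in the *Snd1* KO clones. Both had the same clones at the top, as did complexes III and V, whereas complex II did not share the high value of Control 3. Of the 80 genes tested, 34 had their highest value in Control 3, compared with 9.34% of all genes tested, and 25 in *Snd1* KO 2, compared with 25.4%. Without *Snd1* KO 2 the *Snd1* KO clones lay above the control clones for 5 (13.3% of all genes) and below for 17 (6.82%).

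**Figure D4:**
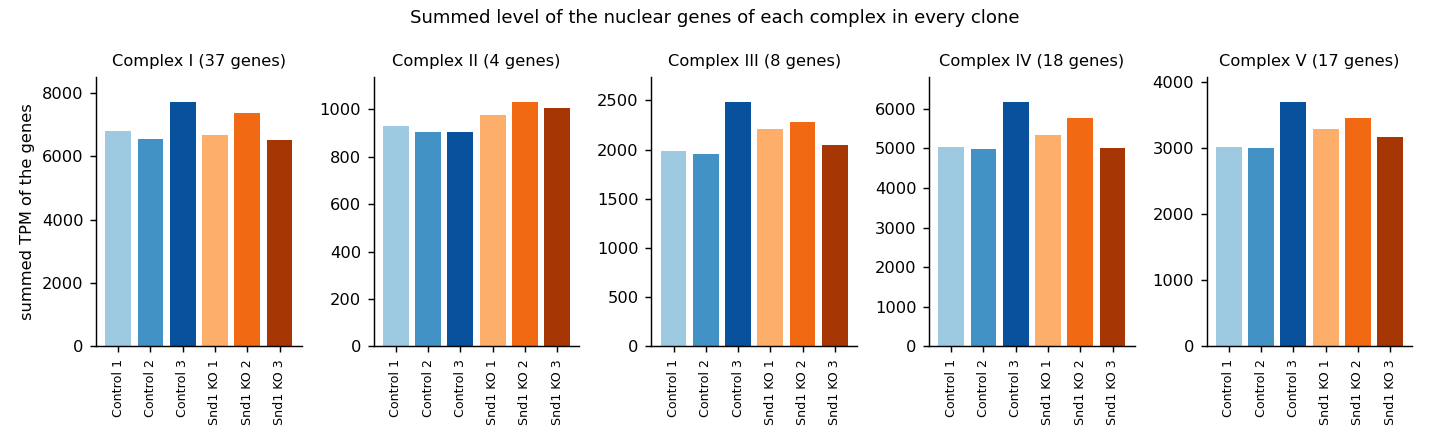
Summed TPM of the nuclear genes of each complex in every clone, with axes from 0. In complexes I, III, IV and V the bar of Control 3 is highest and that of *Snd1* KO 2 next, and the means of the groups for all 84 genes were 18710.2 ± 1986 TPM for the control clones and 18699 ± 1093 TPM for the *Snd1* KO clones (mean ± SD, n = 3).

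The subunit genes have short transcripts, with a median of 699 bases for the mean length of the transcripts of a gene, compared with 1776 bases for protein-coding genes averaging 5 TPM or more. The deviations of the clones also went with transcript length in other genes. In 178 other protein-coding genes with transcripts of up to 600 bases, the median deviation was -0.02, -0.12 and 0.13 in Controls 1, 2 and 3 and -0.05, 0.13 and -0.07 in *Snd1* KO 1, 2 and 3, and in the 30 respiratory chain genes of that length it was -0.10, -0.09 and 0.18 in Controls 1, 2 and 3 and -0.04, 0.14 and -0.05 in *Snd1* KO 1, 2 and 3. In 1720 genes with transcripts over 3000 bases it was -0.20 in Control 3 and -0.07 in *Snd1* KO 2. Control 3 and *Snd1* KO 2 were therefore the highest clones among short transcripts outside the respiratory chain too, and the lowest among the longest transcripts. In the class from 900 to 1300 bases, the respiratory chain genes were at 0.12 in Control 3 and the other genes at -0.03. The part of transcript length in the sums above was not tested further. In bulk RNA, fewer cells with a transcript and less of it per cell cannot be told apart.

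**Figure D5:**
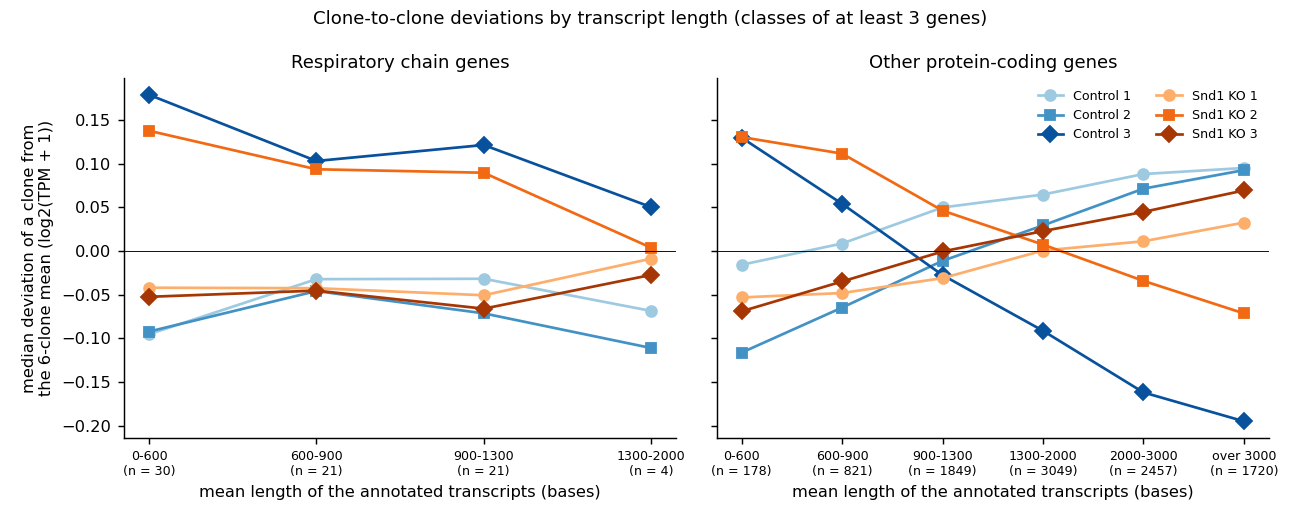
Median deviation of each clone from the mean of the 6 clones (log2(TPM + 1)) by mean transcript length in bases, for respiratory chain genes (left) and other protein-coding genes (right), with the number of genes in each class. Control 3 falls from 0.13 to -0.20 from the shortest to the longest class of other genes, and is at 0.18 in the shortest class of respiratory chain genes.

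The median range over the 6 clones was 0.39 on the log2(TPM + 1) scale for the 78 genes averaging 5 TPM or more, compared with 0.58 for all 11368 genes above this minimum, which were not matched to the subunit genes in level. A range over 1 was found in 4 of them, *Cox6a2*, *Cox7a1*, *Atp5e* and *Ndufc1*. The genes tested had a median of 2339 reads per clone, and the part of depth in these ranges was not tested. By sequence, 0 of the 84 genes shared over 50% of their 100-base stretches with annotated transcripts of genes outside the 84, and 66 shared under 5%. Only exact matches were counted, and sharing among the 84 genes was not. The share of reads that could belong to another gene was not measured. *Atp5g2* (34.7%, mostly with *Gm10175*), *Atp5o* (27.9%), *Ndufb6* (24.0%) and *Ndufa13* (24.0%) shared over 20%, and their levels are less certain. The Takara and Nextera XT kits are not stated to keep the strand, so that reads of overlapping antisense genes may be included.

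Genes that work with these subunits were listed by role. No gene of these lists was called (limma). The 13 subunits encoded in mitochondria all had a higher fitted mean in *Snd1* KO, with a median log2 fold change of 0.41, and the *Snd1* KO clones lay above the control clones for 4 of them, compared with 9.69% of all genes tested. Of the 13 genes, 6 (*mt-Nd3*, *mt-Nd4l*, *mt-Co2*, *mt-Co3*, *mt-Atp6* and *mt-Atp8*) had only 10 to 177 reads per clone, whereas the other 7 had at least 7253. How reads that match several places were counted is not given in the sources used here, and the values of these low genes may not follow the level of the transcript. The median log2 fold change was 0.41 over the others, of which 3 had every *Snd1* KO clone above every control clone. The sums of all 13 were 121960.0, 128536 and 82293 TPM in the control clones and 154736, 121231 and 136135 TPM in the *Snd1* KO clones, lowest in Control 3, where the nuclear subunits were highest. *mt-Co1* was at 38618, 40684 and 23289 TPM in the control clones and 43360, 30970 and 37006 TPM in the *Snd1* KO clones. Directions and medians of the 13 genes depend in part on Control 3 and were not recomputed without it. Without the insulin and mitochondrially encoded genes in the total, the median log2 fold change of the nuclear subunits was 0.06 and that of all genes 0.09. *mt-Co2* passed an unadjusted p-value of 0.05 in this direction on 59 to 95 reads per clone, compared with 67613 to 138743 for *mt-Nd1*, and was at 19.1, 19.9 and 17.4 TPM in the control clones and 26.9, 24.99 and 23.6 TPM in the *Snd1* KO clones (adjusted p-value of 0.568, limma).

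The 16 assembly factors of complex I had a median log2 fold change of 0.04, and *Ndufaf6*, which is needed for the assembly of complex I, was lower at 17.1, 15.4 and 19.9 TPM in the control clones and 12.2, 15.3 and 10.3 TPM in the *Snd1* KO clones (adjusted p-value of 0.607, limma). Of the assembly factors of complex IV, 19 were tested with a median of -0.06, and *Cox20*, a chaperone of the mitochondrially encoded subunit COX2, was higher at 70.1, 73.5 and 73.7 TPM in the control clones and 86.1, 98.0 and 88.0 TPM in the *Snd1* KO clones (adjusted p-value of 0.568, limma). The 4 assembly factors of complex II, 6 of complex III and 4 of complex V had medians of 0.03, 0.03 and 0.01, with 0 genes at an unadjusted p-value under 0.05. Electron carriers and their synthesis genes (18 genes) and the citric acid cycle (13 genes) had medians of -0.01 and -0.03, again with 0 such genes. The former list includes the subunit genes *Cyc1* and *Ndufab1*, with log2 fold changes of -0.04 and 0.01. Among 14 tested regulators of mitochondrial genes, 12 were higher, compared with 57.3% of all genes tested, with a median of 0.13 compared with 0.04, and *Nfe2l2*, the regulator of the antioxidant response, was at 40.2, 38.1 and 31.8 TPM in the control clones and 56.9, 51.8 and 50.8 TPM in the *Snd1* KO clones, with a fitted difference of 0.53 ± 0.12 (SE) on the log2 scale and an adjusted p-value of 0.543 (limma). Over the 107 tested genes of all these lists, each *Snd1* KO clone was above each control clone for 8 genes, compared with 9.69% of all genes tested, among them *Nfe2l2*, *Cox20* and *mt-Co2*, and below for 6, compared with 4.03%, among them *Ndufaf6*. Of the β cell markers, *Slc2a2*, the glucose transporter, was lower at an unadjusted p-value under 0.05, at 159.6, 65.0 and 172 TPM in the control clones and 91.5, 40.5 and 32.8 TPM in the *Snd1* KO clones, with overlapping groups.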

How the data were processed

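RNA from 3 control and 3 *Snd1* KO clones of MIN6 was analysed, with 1 library per clone and groups taken from the sample labels. The authors prepared libraries with Takara cDNA and Nextera XT kits from RNA with integrity numbers of at least 7, sequenced paired ends and deposited TPM values per gene. The submitters' processing notes name FastQC, Trimmomatic, HISAT2, HTSeq, DESeq2 and mm10, without versions.

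Ensembl identifiers were matched to GENCODE M21 (GRCm38) for 53706 genes, and spike-in controls, at most 1.02 TPM in a clone, were left out. TPM multiplied by the summed exon length of all transcripts gave whole multiples of 1 step per clone, within 0.01, for 99.97% of values above 0, and for all 84 respiratory chain genes. These recovered reads gave the depth, the limit of 3 reads for a count of 0, and TPM with each exonic base counted once. They cover counting error only.

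*Snd1* KO and control were compared on log2(TPM + 1) by limma 3.58.1 (lmFit, eBayes with trend) in R 4.3.3, for genes averaging 0.5 TPM or more, with Benjamini-Hochberg adjustment over all genes tested. Fold changes are on this scale, which understates those of low genes. The fit was tested on simulated data. Tables and plots were made in Python 3.11.15 (pandas 2.3.3, matplotlib 3.10.9). The labels do not say more of how replicates arose than that they are clones.

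Respiratory chain genes and lists were chosen with earlier results of these data known. Values in every clone are given for core subunits, for isoform pairs, for the 3 genes of each complex with the largest log2 fold change in size and for genes at an unadjusted p-value under 0.05, up to 10 in each direction. The values of 1 gene are not reported here, although it is counted in the totals. Neighbours, transcript lengths and the loci of *Uqcrc1* and *Cox6a2* were chosen after the values were seen, as were voom on recovered reads and TPM with each exonic base counted once among the alternatives. Results were recomputed with a pseudocount of 0.1, without a filter, for genes averaging 5 TPM or more, after quantile normalization or median ratio scaling, with TPM rescaled without insulin and mitochondrially encoded genes, with quality weights for clones, with a robust trend, with a block for the replicate number, and without each clone in turn. Protein sequences were not used here.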

Additional observations from a re-analysis of the deposited data

How the results depend on the processing

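The share of all genes tested under the same setting is given in percent after each count. No respiratory chain gene passed an adjusted p-value of 0.05 under any alternative except clone quality weights, where 6 did (*Atp5g1*, *Cox5a*, *Cox6c*, *Cox8b*, *Sdhd* and *Uqcrc1*, 12.1%), of which 1, *Cox8b*, also differed by 2-fold or more. Over all genes, the single gene that met both criteria became 895 with these weights, 0 without a filter, 0 with a replicate block and 0 by voom (0 to 1 when each clone was left out). Respiratory chain genes at an unadjusted p-value under 0.05 and higher, 1 in the reported fit, were 7 with quality weights (18.2%), 5 without insulin and mitochondrially encoded genes (7.15%), 2 with each exonic base counted once (5.88%), and 0 with median ratio scaling (4.55%), without a filter (4.05%), with the replicate block (4.51%) and by voom (5.48%), and 0 to 4 on leaving out a clone (4 without Control 3, 6.99%). Those lower, 2 in the reported fit, were 9 with quality weights (14.4%), 1 with a mean of at least 5 TPM (2.66%), a pseudocount of 0.1 (2.31%), quantile normalization (4.05%), the replicate block (2.20%) or without insulin and mitochondrially encoded genes (1.62%), and 0 without a filter (1.78%) and by voom (3.24%), and 0 to 4 on leaving out a clone (4 without *Snd1* KO 1, 4.595%). Genes with every *Snd1* KO clone above every control clone, 5 as reported, were 10 without insulin and mitochondrially encoded genes (12.9%), 2 with quantile normalization (6.69%), and 1 with median ratio scaling (7.64%) and by voom (8.81%), and 5 to 26 on leaving out a clone (26 without Control 3, 17.2%). Those below, 7 as reported, were 3 without insulin and mitochondrially encoded genes (2.46%) and 5 with quantile normalization (7.49%), and 7 to 17 on leaving out a clone (17 without *Snd1* KO 2, 6.82%, and 12 without *Snd1* KO 1, 10.9%). These shifts in scale moved the median of all genes tested too, from 0.04 to 0.09 without insulin and mitochondrially encoded genes and to 0.0042 with median ratio scaling. The median log2 fold change of complex II was -0.034 with quality weights, -0.041 with median ratio scaling and 0.058 without insulin and mitochondrially encoded genes (-0.058 to 0.040 on leaving out a clone), and the log2 fold change of *Sdha* was -0.0060 with quality weights (-0.043 to 0.15, negative without Control 3). The cause of these changes was not tested. Deviations from the group mean in clones with the same number had correlations of 0.115, -0.199 and -0.108. A shared preparation was not tested by these values, and the replicate block describes a shared number only. The sensitivity of the adjusted test was limited, since *Snd1* itself, with a log2 fold change of -2.11 ± 0.45 (SE), had an adjusted p-value of 0.511 (limma), and in *Cox8b*, *Cox7a1* and *Ndufa4l2* low read counts limit the values.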
